A study of Danio rerio with 16 samples.

Results

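The comparison concerned VBA- cortisol against VBA- vehicle libraries, 8 of the 16 RNA-seq libraries of the study (4 in each group), and all genes of the table were taken. The tested larvae were homozygous for GR369-, which shifts the reading frame of nr3c1 and so removes the glucocorticoid receptor (GR), and developed from 4 h post fertilization in medium with 1 µM cortisol. Their controls carried the same mutation and developed in DMSO vehicle. VBA+ cortisol and VBA+ vehicle larvae, siblings of which some were wild type and some heterozygous, with 4 libraries per group, served here for contrast. Each library was a pool of 8 whole larvae collected at 5 days post fertilization, 3 h after lights-on. Genotype was not read from each larva. Instead, larvae were sorted by visual background adaptation (VBA), the GR-dependent camouflage response of pigment cells. All pools of a condition came from 1 dish and the conditions were collected in turn, so that treatment, dish and order of collection cannot be told apart. The p-values given below therefore measure only the spread between pools of a dish.

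Cortisol acts in vertebrate cells mainly through the GR, a nuclear receptor that binds the hormone and switches target genes such as fkbp5, klf9 and per1a. A second receptor, the mineralocorticoid receptor encoded by nr3c2, also binds cortisol, and teleost fish have it as well. Immediate early genes, among them fos, egr1 and npas4a, are transcribed within minutes of a stimulus without new protein synthesis, and npas4 in particular is induced by calcium entry in active neurons. The question of the comparison was which transcripts still differ with chronic cortisol when the GR is missing, and how far pools treated alike depart from each other.

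Values are log2(normalized count + 0.1) after the authors' quantile normalization, which gave every library the same set of values, and 1 unit is a doubling. Sequencing depth is unknown, and values carry no estimate of their counting error. Of 22994 genes, 21686 had a mean normalized count of at least 5 over all libraries and were tested, and 13772 reached a mean of 75. A gene was called when its adjusted p in limma was at most 0.05, its log2 fold change at least 0.5 in size, its standard error (SE) under 1 and its mean at least 75. In a whole larva, fewer cells of a type and less RNA per cell cannot be told apart. Markers of 10 cell types of a larva were checked, and all 28 markers that could be matched were detected in the VBA- libraries, with a lowest library value of 5.59.

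The genotype labels were checked by the levels of NR3C1 and FKBP5, a check that was not planned and was added after the data were seen. NR3C1 (ENSDARG00000025032), the mutated gene, had 9.21, 8.69, 8.46 and 7.83 in the VBA- cortisol pools, against 9.0, 8.48, 9.33 and 8.42 in the VBA- vehicle pools. The VBA+ libraries ranged from 9.39 to 9.59 in cortisol and from 9.18 to 9.52 in vehicle. VBA- cortisol replicate 1 and VBA- vehicle replicate 3 thus lay inside the range of GR-carrying larvae. FKBP5 (ENSDARG00000028396), a chaperone partner of the GR and its classic target, had 8.95, 6.94, 6.66 and 3.34 in the VBA- cortisol pools, against 8.71, 6.0, 5.98 and 5.25 in the VBA- vehicle pools. Replicate 1 of each VBA- group lay in the VBA+ range of 8.42 to 9.47, and the other 6 VBA- libraries were below it. Whether these 3 pools held larvae that carry a functional GR was not tested. The main results are therefore given with and without them.

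No gene was called in VBA- larvae, a percent called of 0. The smallest adjusted p in limma was 0.308, and 389 genes had an unadjusted p under 0.05. Without the 3 pools in the VBA+ range no gene was called either, and 161 had an unadjusted p under 0.05. In VBA+ larvae 780 genes rose with cortisol (3.6% of those tested) and 1003 fell (4.63%). The difference between the genotypes, fitted as an interaction of cortisol and genotype on all 16 libraries, was called for 1 gene, 0.00461% of those tested. Where all 16 libraries shared 1 estimate of the spread, 5 genes were called in VBA- larvae (0.0231%), all of them higher: egr4, NPAS4, ier2b, SIK1 and gpr3. The same fit called 21 genes in VBA+ larvae in place of 1783, and the count for VBA+ larvae was 6 with a replicate block and 414 to 2925 with a library left out, so the size of the contrast between the genotypes depends on the fit. Adding a term that separates replicates 1 and 2 from the others called 2, NPAS4 and ier2b. These counts say what passed a threshold. They do not show that the other genes stayed the same.

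A second description, free of a model, counted the genes for which all 4 VBA- cortisol libraries lay on one side of all 4 VBA- vehicle libraries. There were 148 such genes above the vehicle libraries, 0.682% of those tested, and 182 below, 0.839%. If libraries were exchangeable, 4 would separate fully from 4 others for a share of 0.0286 of genes, both sides together. The counts found do not exceed that share, so they do not show that these genes moved with cortisol. Of those with a mean of at least 75, 90 lay above, with a median log2 difference of 0.30, and 134 lay below, with a median size of 0.26. Differences of at least 1 were found for 11 of the 90 and for 2 of the 134. In VBA+ larvae the same count gave 1830 genes above (8.44%) and 2550 below (11.8%). Of the 148 genes above in VBA- larvae, 27 were also above in VBA+ larvae, which is 18.2% of the VBA- genes and 1.48% of the VBA+ genes. Of the 182 below, 35 were also below in VBA+ larvae, 19.2% of the VBA- genes and 1.37% of the VBA+ genes. Another 5 genes lay on opposite sides in the 2 genotypes. Without the 3 pools in the VBA+ range, when 3 cortisol libraries face 2 vehicle libraries and separation is easier, 1005 genes lay above (4.63%) and 1011 below (4.66%).

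Immediate early genes were the list with the largest share above. Of 49 tested members, 16 lay above vehicle in all 4 VBA- cortisol libraries (32.7%, against 0.682% of all tested genes), none lay below, and 41 had a positive log2 fold change. The list's median log2 fold change was 0.41 in VBA- and 0.46 in VBA+ larvae, against -0.01 over all tested genes in each genotype. None of the members passed the limma test in VBA- larvae, and 23 had an unadjusted p under 0.05, against 389 of all 21686 tested genes. In VBA+ larvae 15 rose, against 3.6% of all tested genes, and 1 fell, against 4.63%. Without the 3 pools 20 members lay above (40.8%, against 4.63% of all tested genes) and 2 below. The 16 were among the 20 by necessity, since leaving libraries out cannot undo a separation. Some of these genes were singled out by the study on these same samples, so that their direction is not independent evidence.

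NPAS4 (ENSDARG00000055752), a transcription factor of active neurons, had the largest log2 fold change of these genes. It reached 7.51, 7.41, 8.36 and 8.13 in the VBA- cortisol pools, against 6.0, 5.78, 6.25 and 6.25 in the VBA- vehicle pools. The lowest cortisol pool was 1.16 above the highest vehicle pool. The log2 fold change was 1.78 ± 0.24 (SE), a 3.43-fold difference, with an adjusted p of 0.369 in limma, 0.02 with all 16 libraries in the fit and 0.0082 with the term for replicates 1 and 2. In VBA+ larvae it was 2.43 ± 0.22 (SE, adjusted p 0.00132 in limma). A second gene under the symbol NPAS4 (ENSDARG00000087753) was under the limit for testing.

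The EGR genes encode zinc-finger factors that follow MAP kinase and calcium signals. Levels of egr4 (ENSDARG00000077799) were 7.51, 7.47, 7.78 and 7.51 in VBA- cortisol and 6.36, 5.68, 5.86 and 6.21 in VBA- vehicle libraries. The cortisol pools were within 0.31 of each other and the nearest vehicle pool was 1.11 lower. Its log2 fold change was 1.54 ± 0.19 (SE) with an adjusted p of 0.308, the smallest in the comparison, and of 0.0129 with all 16 libraries in limma. In VBA+ larvae it was 1.88 ± 0.20 (SE, adjusted p 0.00368 in limma). Levels of egr1 (ENSDARG00000037421) were 9.97, 9.32, 10.31 and 10.08 in VBA- cortisol and 9.0, 8.67, 8.99 and 8.90 in VBA- vehicle libraries, and the groups did not overlap. The log2 fold change of egr1 was 1.03 ± 0.20 (SE) in VBA- and 1.27 ± 0.14 (SE) in VBA+ larvae. Another member, EGR3, overlapped between the VBA- groups, with a log2 fold change of 0.60.

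AP-1 is a dimer of FOS and JUN family proteins. FOS (ENSDARG00000031683) had 7.17, 6.99, 7.81 and 7.73 in VBA- cortisol libraries and 6.41, 5.59, 5.68 and 6.59 in VBA- vehicle libraries. All cortisol pools were above all vehicle pools by at least 0.40. The log2 fold change was 1.36 ± 0.29 (SE) in VBA- larvae, against 2.1 ± 0.14 (SE) in VBA+ larvae, where FOS rose (adjusted p 0.000555 in limma). The interaction for FOS was -0.74 ± 0.33 (SE) with an unadjusted p of 0.041 and an adjusted p of 0.726 in limma, so no difference between the genotypes was detected. Its relative fosaa, at a mean count of 21, had a log2 fold change of 1.25 and also did not overlap. JUNB (ENSDARG00000104773) and JUND did not overlap either, with log2 fold changes of 0.55 and 0.43. The second JUNB gene (ENSDARG00000074378), FOSL1 and FOSL2 overlapped, at 0.22, 0.38 and 0.12. JUN overlapped at -0.03, with 10.29, 10.10, 10.03 and 10.10 in VBA- cortisol and 10.24, 10.10, 10.13 and 10.17 in VBA- vehicle libraries.

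The remaining genes of this kind belong to other classes of early response. The gene ier2b (ENSDARG00000086881), a short-lived nuclear protein, had 8.81, 8.57, 8.33 and 8.38 in VBA- cortisol and 7.76, 7.57, 7.30 and 7.19 in VBA- vehicle libraries. The fitted difference of ier2b was 1.07 ± 0.17 (SE) in VBA- and 1.16 ± 0.14 (SE) in VBA+ larvae, with an interaction of -0.09 ± 0.22 (SE, adjusted p 0.897 in limma). SIK1 (ENSDARG00000058606), a kinase induced by cyclic AMP, had 9.33, 9.38, 9.67 and 10.199 in VBA- cortisol and 8.66, 8.61, 8.38 and 8.84 in VBA- vehicle libraries. The difference was 1.02 ± 0.20 (SE), and replicate 4 was the highest of both groups. The gene gpr3 (ENSDARG00000094860), which encodes a receptor that raises cyclic AMP without a ligand and is no member of the list, had 6.60, 6.49, 7.30 and 7.13 in VBA- cortisol and 5.59, 5.91, 5.53 and 5.33 in VBA- vehicle libraries. For gpr3 the log2 fold change was 1.29 ± 0.23 (SE) in VBA- and 1.43 ± 0.17 (SE) in VBA+ larvae.

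The phosphatase genes DUSP5 and DUSP1 lay above vehicle as well, while DUSP2 and DUSP4 of the same list overlapped between the VBA- groups, at log2 fold changes of 0.42 and 0.41. DUSP5 (ENSDARG00000019307), a phosphatase of the ERK kinases, had 6.87, 6.70, 6.80 and 6.81 in VBA- cortisol and 6.17, 6.0, 5.53 and 5.40 in VBA- vehicle libraries, a log2 fold change of 1.02 ± 0.20 (SE). In VBA+ larvae it was 0.62 ± 0.19 (SE) and the libraries overlapped. DUSP1 (ENSDARG00000100515), a MAP kinase phosphatase that the GR induces in mammals, had 10.25, 9.64, 9.60 and 9.52 in VBA- cortisol and 9.15, 9.05, 8.97 and 8.94 in VBA- vehicle libraries. For DUSP1 the log2 fold change was 0.73 ± 0.17 (SE), against 1.03 ± 0.12 (SE) in VBA+ larvae. BTG2 (ENSDARG00000020298), an antiproliferative factor, had 9.15, 8.91, 8.71 and 8.53 in VBA- cortisol and 8.38, 8.00, 7.73 and 7.48 in VBA- vehicle libraries, a difference of 0.93 ± 0.21 (SE). Within each group its highest pool was replicate 1 and its lowest replicate 4.

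**Figure D1:**
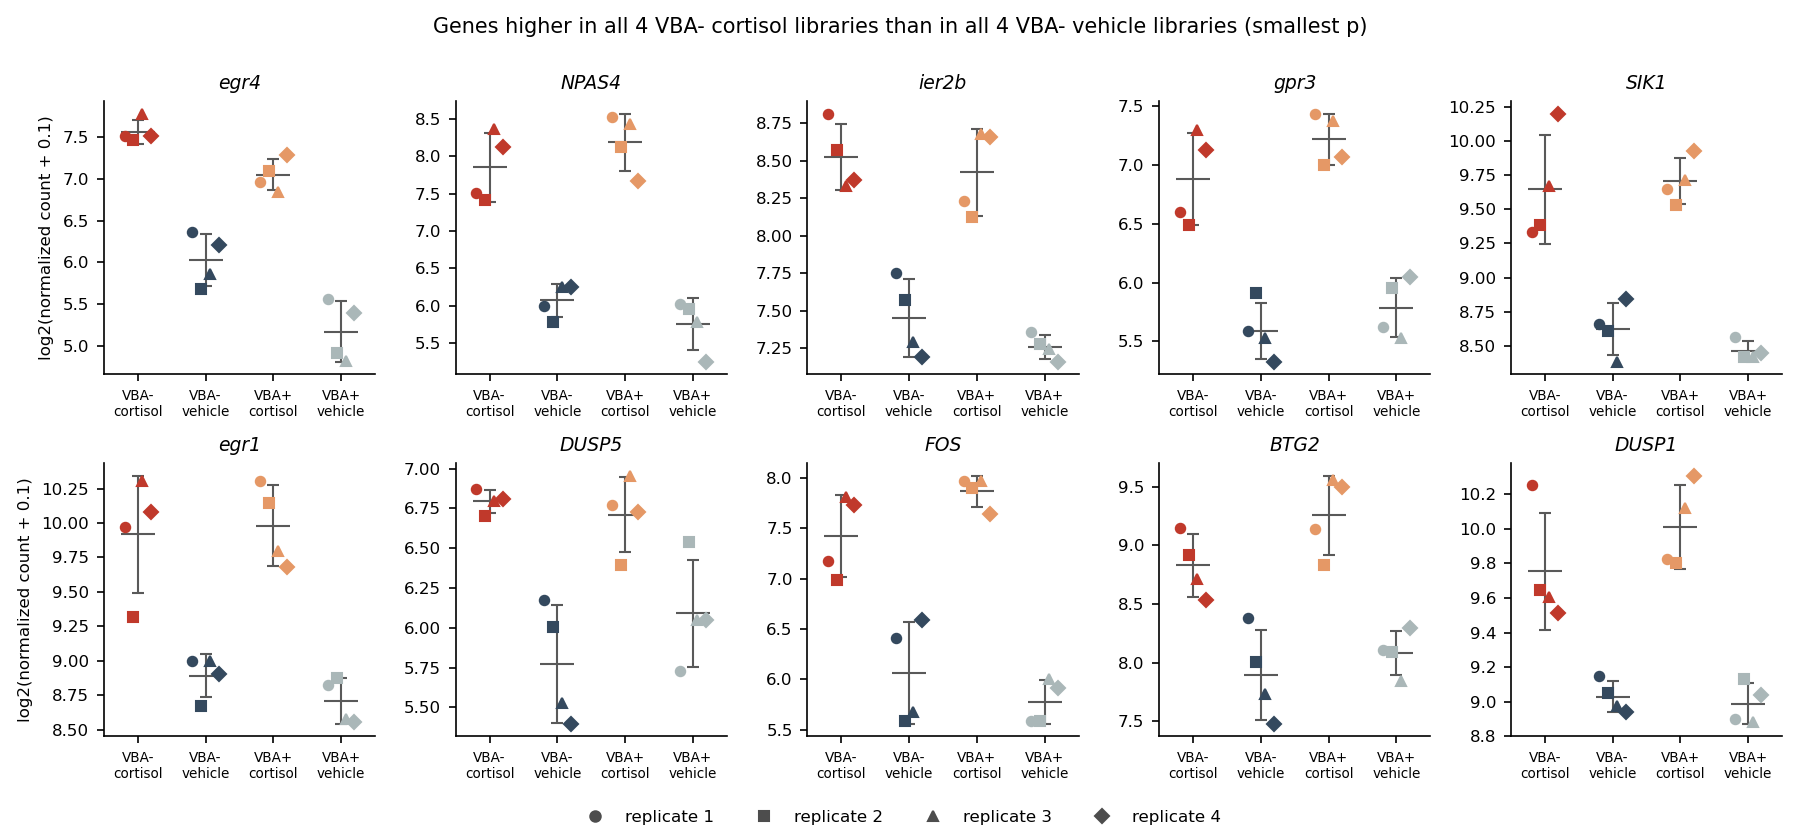
Level of the 10 genes with the smallest unadjusted p among those above vehicle in all VBA- cortisol libraries. The vertical axis is log2(normalized count + 0.1), each symbol is 1 library (its shape gives the replicate number), and bars are the mean ± SD of the 4 libraries of a group. In each panel the 4 VBA- cortisol points sit above the 4 VBA- vehicle points, by 1.16 for NPAS4 and by 0.16 for BTG2.

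Several members of the list were high in some VBA- cortisol pools only. GADD45B (ENSDARG00000027744), a stress sensor, had 10.31, 9.70, 8.37 and 8.65 in VBA- cortisol and 8.21, 8.34, 8.36 and 8.02 in VBA- vehicle libraries. Its lowest cortisol pool exceeded its highest vehicle pool by 0.01, and the difference rested on replicates 1 and 2. RGS2, a brake on G protein signals, had 7.05, 5.91, 5.21 and 5.09 in VBA- cortisol and 4.81, 4.91, 5.00 and 5.00 in VBA- vehicle libraries, with the same 2 pools on top. The gene klf2a overlapped, with 10.66, 9.99, 8.75 and 8.64 in VBA- cortisol and 8.86, 8.32, 8.20 and 8.55 in VBA- vehicle libraries. Of 49 tested list members 3 had an unadjusted interaction p under 0.05 (FOS, klf2b and CSRNP1), and none passed after adjustment in limma. Over all tested genes it was 1138 of 21686, a similar share. Here klf2b, a Krüppel-like factor, fell by 0.90 with cortisol in VBA+ larvae (adjusted p 0.00943 in limma), and its log2 fold change was -0.19 in VBA- larvae.

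Among known GR targets 1 of 37 tested genes lay above vehicle in all VBA- cortisol libraries (2.7%, against 0.682% of all tested genes). None lay below and none was called. Without the 3 pools in the VBA+ range 2 of the 37 lay above (5.41%, against 4.63% of all tested genes) and none below. The list's median log2 fold change was 0.24 in VBA- larvae and 0.42 in VBA+ larvae. In VBA+ larvae 13 of the 37 rose, against 3.6% of all tested genes, and none fell. With all VBA- libraries kept, the member without overlap was TOB1 (ENSDARG00000032619), an antiproliferative factor. It had 10.54, 10.54, 10.45 and 10.51 in VBA- cortisol and 10.33, 10.23, 10.197 and 10.197 in VBA- vehicle libraries. KLF9 (ENSDARG00000068194), a Krüppel-like repressor and a direct GR target, had 9.54, 8.49, 8.16 and 7.44 in VBA- cortisol and 7.92, 7.56, 7.18 and 7.60 in VBA- vehicle libraries. Replicates 1 to 3 of the cortisol group lay above every vehicle pool and replicate 4 lay inside their range. The difference was 0.84 ± 0.39 (SE) on the log2 scale with an adjusted p of 1 in limma, and 0.45 without the 3 pools in the VBA+ range, 1 of which is the cortisol pool at 9.54. In VBA+ larvae KLF9 rose by 1.14 ± 0.21 (SE, adjusted p 0.0133 in limma), and the interaction was -0.30 ± 0.47 (SE, adjusted p 0.835 in limma).

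The other genes of cortisol reception overlapped between the VBA- groups. FKBP5 had a log2 fold change of -0.01 ± 1.13 (SE) in VBA- larvae, an SE too wide to read a direction. NR3C1 was at -0.26 ± 0.30 (SE). NR3C2 (ENSDARG00000102082), the mineralocorticoid receptor, had 5.36, 5.59, 6.31 and 5.86 in VBA- cortisol and 5.21, 5.33, 5.53 and 6.05 in VBA- vehicle libraries, a difference of 0.25 ± 0.27 (SE). The 2 genes under the symbol PER1, a clock repressor, differed by 0.27 ± 0.20 (SE, ENSDARG00000056885) and -0.12 ± 0.12 (SE, ENSDARG00000012499). Of 21 tested genes of the stress axis and steroid enzymes none lay apart in either direction, and HSD11B2, which inactivates cortisol, overlapped at a log2 fold change of 0.23. Clock genes gave 3 of 40 above vehicle (against 0.682% of all tested genes), namely rorcb, rorca and BHLHE40, with log2 fold changes of 0.63, 0.23 and 0.09. The first 2 encode ROR nuclear receptors and the last a repressor of the clock.

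Below vehicle, the list with the largest share was that of plasma proteins made in the liver. Of 55 tested members 6 lay below in all VBA- cortisol libraries (10.9%, against 0.839% of all tested genes), none lay above, and 3 had a positive log2 fold change. The list's median was -0.27 in VBA- larvae. In VBA+ larvae it was 0.70, 17 members rose (against 3.6% of all tested genes) and none fell (against 4.63%). The interaction had an unadjusted p under 0.05 for 22 of the 55 members, against 1138 of all 21686 genes, but was called for none. Without the 3 pools 8 members lay below (14.5%, against 4.66% of all tested genes, a smaller excess) and none above. That the 8 include the 6 was again certain, since leaving libraries out cannot undo a separation.

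These 6 genes encode carriers, clotting factors and a relative of complement factor H. The gene serpina7 (ENSDARG00000087143), which encodes thyroxine-binding globulin in mammals, had 7.44, 6.98, 7.66 and 7.85 in VBA- cortisol and 8.18, 8.35, 8.55 and 8.39 in VBA- vehicle libraries. The highest cortisol pool was 0.33 below the lowest vehicle pool, and the fitted difference was -0.89 ± 0.19 (SE), with an adjusted p of 1 in limma. In VBA+ larvae it was 0.16 ± 0.21 (SE), and the interaction was -1.05 ± 0.31 (SE, unadjusted p 0.0035, adjusted p 0.726 in limma). TTR (ENSDARG00000037191), which also carries thyroid hormone, had 9.92, 10.26, 10.02 and 10.26 in VBA- cortisol and 10.57, 10.62, 10.27 and 10.43 in VBA- vehicle libraries. The gap between its groups was only 0.01.

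The gene apom (ENSDARG00000076838), an apolipoprotein of high-density lipoprotein, had 11.58, 11.61, 11.53 and 11.82 in VBA- cortisol and 11.99, 12.01, 12.01 and 12.15 in VBA- vehicle libraries, a log2 fold change of -0.40 ± 0.10 (SE). In VBA+ larvae the libraries of apom overlapped at -0.32 ± 0.17 (SE). FGG (ENSDARG00000037281), the gamma chain of fibrinogen, had 11.50, 11.35, 11.26 and 11.39 in VBA- cortisol and 11.61, 11.63, 11.75 and 11.69 in VBA- vehicle libraries, a difference of -0.29 ± 0.09 (SE). The coagulation factor F7 had a log2 fold change of -0.29 and cfhl4 (ENSDARG00000102456), a gene related to complement factor H, one of -0.34 ± 0.10 (SE). A further complement gene outside the list, c7b, also lay below in all pools at -0.68. These differences were small, and the spread of the whole list between cortisol pools was wider than they are: its median relative to the vehicle mean was -0.68, -0.94, 0.26 and 0.29 in replicates 1 to 4 of VBA- cortisol, against -0.19, -0.28, 0.06 and 0.46 in VBA- vehicle libraries.

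Other genes below vehicle came from several systems. None passed the limma test, and the adjusted p of those named was 1. MT-CO2 (ENSDARG00000063908), a subunit of cytochrome oxidase encoded in the mitochondrial genome, had 15.21, 15.21, 15.54 and 15.54 in VBA- cortisol and 16.89, 16.13, 16.13 and 16.13 in VBA- vehicle libraries. Among the most abundant genes the deposited values are shared by blocks of ranks, and MT-CO2 stood at rank 35 or 45 in the cortisol pools and at rank 15 or 25 in the vehicle pools. Its log2 fold change of -0.94 ± 0.19 (SE) is therefore a shift of 1 to 3 blocks. Of 11 tested genes of the mitochondrial genome, a set chosen after seeing these values, 2 lay below (MT-CO2 and MT-ND1), against 0.839% of all tested genes. None lay above, and the median log2 fold change of the 11 was -0.08. ATP5PD (ENSDARG00000098355), a subunit of the nuclear-encoded ATP synthase, had 12.07, 11.99, 11.87 and 11.87 in VBA- cortisol and 12.31, 12.28, 12.28 and 12.23 in VBA- vehicle libraries. It also lay below in VBA+ larvae, with log2 fold changes of -0.32 ± 0.09 (SE) in VBA- and -0.39 ± 0.09 (SE) in VBA+ larvae.

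NFKBIZ (ENSDARG00000102097), an inducible regulator of NF-kappaB target genes, had 6.70, 6.32, 5.68 and 5.25 in VBA- cortisol and 6.80, 7.26, 7.13 and 6.93 in VBA- vehicle libraries, a log2 fold change of -1.04 ± 0.30 (SE). The gene irg1l (ENSDARG00000062788), which is expressed in inflamed epithelium of zebrafish, had 6.23, 6.31, 4.18 and 3.02 in VBA- cortisol and 7.15, 6.73, 7.47 and 6.49 in VBA- vehicle libraries. All 4 cortisol pools were below, but replicates 3 and 4 were over 2 units under replicates 1 and 2. For irg1l the log2 fold change was -2.03 ± 0.69 (SE), the largest size among the genes below at a mean of at least 75. The list of inflammation and myeloid genes as a whole had 21 of 54 positive and a median of -0.09. In cortisol replicates 1 to 4, 20, 18, 3 and 4 of these genes lay above all vehicle libraries and 9, 7, 31 and 24 below. Among all 21686 tested genes 5141, 6200, 5959 and 5537 lay above in the same pools and 5021, 5660, 6635 and 5748 below.

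Pigment genes were represented by SLC24A5 (ENSDARG00000024771), the melanosome exchanger mutated in golden zebrafish, which had 6.91, 7.17, 7.07 and 6.91 in VBA- cortisol and 7.65, 7.59, 7.35 and 7.41 in VBA- vehicle libraries. It was the only one of 28 tested melanophore genes to lie apart (3.57%, against 0.839% of all tested genes below), at -0.49 ± 0.14 (SE). Outside the list and named after their values were seen, slc2a11b and plin6, both used by yellow xanthophores, lay below at -0.41 and -0.53, whereas gch2, of the pteridine pathway of the same cells, overlapped at -0.45. In VBA+ larvae slc2a11b, plin6 and gch2 fell, at -0.65, -0.69 and -0.89 (adjusted p 0.0194, 0.0485 and 0.0114 in limma). Their interactions were 0.24 ± 0.21, 0.16 ± 0.33 and 0.44 ± 0.28 (SE, adjusted p 0.731, 0.873 and 0.726 in limma). No difference between the genotypes was thus detected for these genes. The remaining genes of smallest p were aox5 (ENSDARG00000071475), an aldehyde oxidase, at -0.60 ± 0.14 (SE), COMTD1 (ENSDARG00000078918), a methyltransferase-like gene, at -0.52 ± 0.13 (SE), and the selenoprotein gene selenou1b (ENSDARG00000087059) at -0.90 ± 0.25 (SE). MCM3, a subunit of the replicative helicase, lay below at -0.35 ± 0.13 (SE), alone of 41 cell cycle genes (2.44%, against the same 0.839%). Of the 41, 3 were positive and the median was -0.20. The proteasome list gave 1 of 50 below, PSMC6 at -0.19 (2%, against the same 0.839%). Of the 50, 1 was positive and the median was -0.22. In VBA+ larvae 13 of the 41 cell cycle genes fell and none rose, with a median of -0.43. There 21 of the 50 proteasome genes fell and 1 rose, with a median of -0.47. Of all tested genes 4.63% fell and 3.6% rose in VBA+ larvae.

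**Figure D2:**
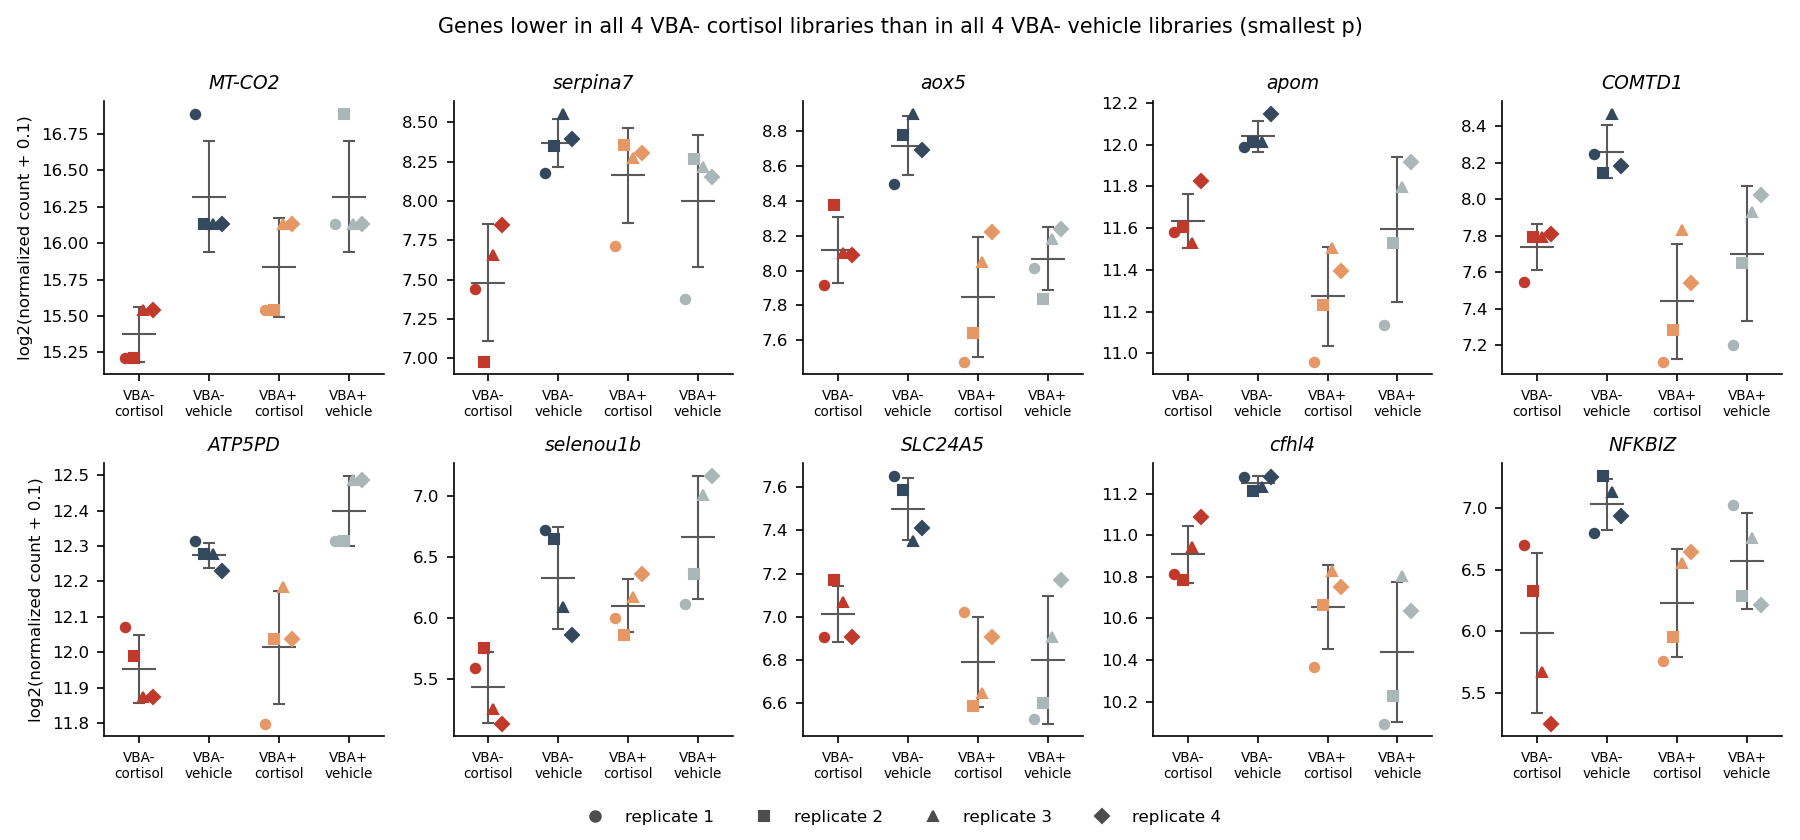
Level of the 10 genes with the smallest unadjusted p among those below vehicle in all VBA- cortisol libraries. The vertical axis is log2(normalized count + 0.1), each symbol is 1 library, and bars are the mean ± SD of the 4 libraries of a group. VBA- cortisol points sit below VBA- vehicle points in each panel, with the gap widest for MT-CO2 (0.59) and narrowest for NFKBIZ (0.09).

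Single members separated in a few other lists, against 0.682% of all tested genes above vehicle. GABRR1, a GABA receptor subunit of the retina, was 1 of 69 transmitter receptor genes above vehicle, at 0.35. The lens gene crygmxl1, at a mean count of 14, was 1 of 53 lens genes above, at 0.99. BNIP3, a receptor for mitophagy, was 1 of 49 genes of muscle atrophy and growth control above, at 0.42. No member lay apart among 84 ribosomal proteins, 56 chaperones, 64 presynaptic genes, 60 photoreceptor genes, 66 sarcomere genes, 25 pancreatic digestive enzymes, 58 collagens and laminins, 46 skin and 33 ionocyte genes, 16 blood genes, 47 genes of gluconeogenesis and amino acid breakdown or 19 late activity and secretory granule genes. In VBA+ larvae some of these lists had many called members, with 18 of the 25 pancreatic enzymes and 14 of the 58 collagens and laminins higher, against 3.6% of all tested genes, and 19 of the 84 ribosomal proteins lower, against 4.63%. In VBA- larvae the pancreatic enzymes had a median log2 fold change of 0.72 with 24 of 25 positive, but their libraries overlapped. Their median relative to the vehicle mean was 0.89, 0.17, 1.39 and 0.29 in the VBA- cortisol pools and -0.68, -0.39, 1.13 and 0.19 in the VBA- vehicle pools, so that replicate 3 of the vehicle group exceeded 3 of the cortisol pools.

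The spread between pools was larger in VBA- cortisol than in any other group. For each library the root mean square (RMS) deviation from the mean of the other 3 libraries of its group was taken over the 13772 genes with a mean of at least 75. It was 0.50, 0.59, 0.58 and 0.50 in the VBA- cortisol pools, against 0.30, 0.30, 0.26 and 0.40 in the VBA- vehicle pools. The 4 cortisol pools all lay above the 4 vehicle pools, with group means of 0.542 ± 0.049 and 0.316 ± 0.060 (SD, n = 4 each) and a two-sided exact permutation p of 0.0286, the smallest that 4 against 4 allows. This p is approximate because deviations within a group share libraries. Without the 3 pools in the VBA+ range the difference of means was 0.09 in place of 0.23, with an exact permutation p of 0.8 for 3 libraries against 2. The 2 differences are not on the same scale, since a deviation from the mean of fewer libraries is larger at equal spread. So few libraries also cannot give a small p, and this setting does not decide whether the spread differs. In VBA+ larvae the deviations were 0.25 to 0.34 in cortisol and 0.26 to 0.28 in vehicle libraries.

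Gene by gene, the SD over pools was larger in VBA- cortisol than in VBA- vehicle for 10591 of the 13772 genes, or 76.9%. The median SD per gene was 0.311 in VBA- cortisol, 0.195 in VBA- vehicle, 0.180 in VBA+ cortisol and 0.154 in VBA+ vehicle libraries. An SD over 1 was found for 459 genes in VBA- cortisol, 51 in VBA- vehicle, 31 in VBA+ cortisol and 33 in VBA+ vehicle libraries. Genes are not independent of each other, and these shares carry no test. Without the 3 pools in the VBA+ range the SD was larger in VBA- cortisol for 72.4% of the genes.

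The pools of the VBA- cortisol group fell into 2 pairs, replicates 1 and 2 and replicates 3 and 4. Correlations between libraries over the same genes were 0.982 within the first pair and 0.981 within the second, and as low as 0.863 between pairs. In both VBA+ groups the libraries paired alike, with a smaller drop between pairs. VBA- vehicle libraries did so less clearly, since replicate 3 correlated at 0.974 to 0.976 with each of the others. Correlations within the 2 pairs were 0.985 and 0.976 in VBA- vehicle, 0.991 and 0.987 in VBA+ cortisol and 0.986 and 0.987 in VBA+ vehicle libraries. The lowest values between pairs were 0.953, 0.962 and 0.974 in these groups. These correlations are across genes and describe the libraries only. A principal component analysis of the 8 VBA- libraries, on z-transformed values of the 8859 genes averaging at least 7.5 on the log2 scale, put 56.4% of the variance on the first component (PC1). Scores were -68.6, -90.1, 104.2 and 80.2 for the VBA- cortisol pools and -25.5, -44.1, -3.76 and 47.7 for the VBA- vehicle pools. The cortisol pools took both ends of the axis with the vehicle pools between them. The group means differed by 12.8, which was small against SDs of 99.9 and 39.6 (exact permutation p 0.857, two-sided), and the sign of that difference turned when replicate 3 or 4 of the cortisol group or replicate 2 of the vehicle group was left out. In the vehicle group replicate 4 also had the highest score and replicates 1 and 2 the lowest. No batch is stated for these libraries.

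**Figure D3:**
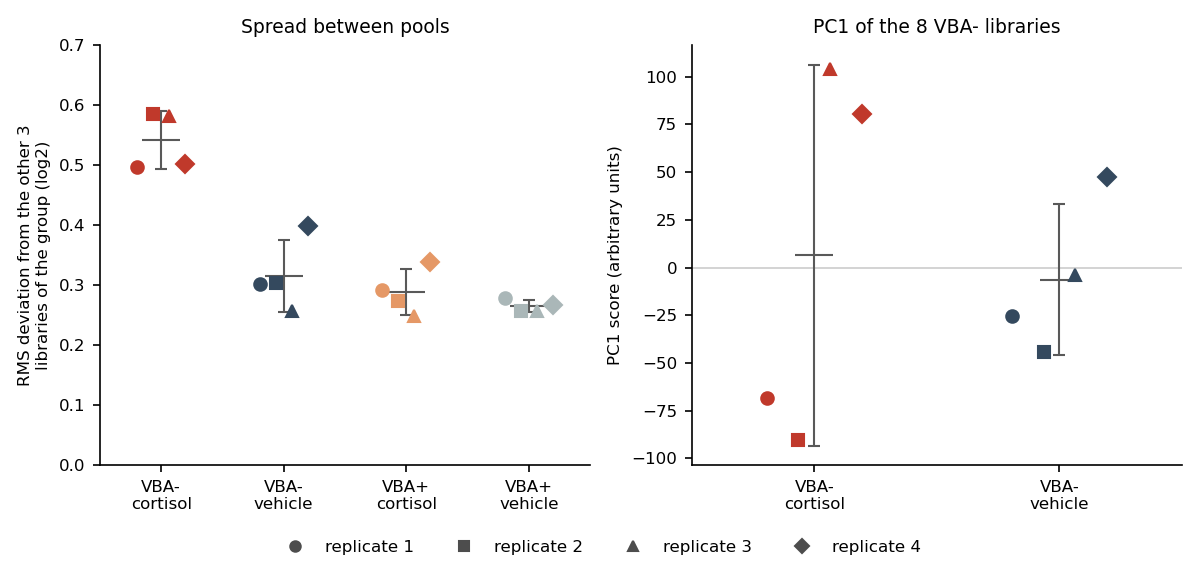
Spread between pools. Left, the RMS deviation of each library from the other 3 of its group over 13772 genes (log2 units), and right, the PC1 score of the 8 VBA- libraries (arbitrary units, 56.4% of the variance). Symbols are libraries and bars the mean ± SD of 4. VBA- cortisol libraries lie at 0.50 to 0.59, above the other groups, and their scores run from -90.1 to 104.2.

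This split outweighed the common direction. Among tested genes 1332 (6.14%) lay above all 4 VBA- vehicle libraries in cortisol replicates 1 and 2 and below all of them in replicates 3 and 4, and 1499 (6.91%) showed the opposite. The genes on the same side in all 4 pools numbered 148 and 182. With a mean of at least 75 the split genes numbered 1134 and 1316 in VBA- larvae, against 26 and 57 with the same split in VBA+ larvae. This count misses pairs that differ on the same side of vehicle, and the VBA+ cortisol pools differed by pair as well. In their replicates 1 to 4, 180, 171, 20 and 26 genes lay above every VBA+ vehicle library by more than 1 log2 unit. Below by as much lay 189, 133, 11 and 3. Other ways to divide the 4 VBA- cortisol pools into pairs gave from 3 to 10 genes each. Differences of over 1 log2 unit beyond every VBA- vehicle library were few in any VBA- cortisol pool, with 11 to 29 genes above and 35 to 86 below.

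Neuronal genes followed the split most closely. Of 64 presynaptic genes, which build and release synaptic vesicles, 32 lay below all vehicle libraries in replicates 1 and 2 and above all of them in replicates 3 and 4 (50%, against 6.91% of all tested genes), and none showed the opposite. Their median relative to the vehicle mean was -0.46, -0.58, 0.79 and 0.49 in the VBA- cortisol pools and 0.07, -0.16, -0.13 and 0.23 in the VBA- vehicle pools. SNAP25 (ENSDARG00000020609), a SNARE protein of the synapse, had 10.77, 10.82, 11.56 and 11.42 in VBA- cortisol and 11.17, 11.17, 11.06 and 11.15 in VBA- vehicle libraries. Replicates 1 and 2 lay below the vehicle range and replicates 3 and 4 above it, and the fitted difference was -0.00. The second SNAP25 gene (ENSDARG00000058117) had 10.07, 9.635, 10.94 and 10.46 in VBA- cortisol libraries. Its VBA- vehicle libraries had 10.42, 10.09, 9.97 and 10.44, so replicate 1 of cortisol lay inside the vehicle range and this gene was not split. Glutamate, GABA and glycine receptors followed, with 23 of 69 split as the presynaptic genes were. Their medians were -0.41, -0.55, 0.63 and 0.39 in the VBA- cortisol pools. Collagens, laminins and basement membrane genes had medians of -0.30, -0.27, 0.30 and 0.35, close to the -0.28, -0.22, 0.14 and 0.35 of the VBA- vehicle pools.

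Lists of protein turnover and surface tissue were lowest in replicates 3 and 4. Genes of the proteasome, which degrades ubiquitylated proteins, had medians of 0.13, 0.11, -0.59 and -0.62 in the VBA- cortisol pools and 0.12, 0.14, 0.00 and -0.23 in the VBA- vehicle pools, and 9 of 50 genes (18%, against 6.14% of all tested genes) were above vehicle in replicates 1 and 2 and below it in replicates 3 and 4. The medians of replicates 1 and 2 were close to those of vehicle replicates 1 and 2, and those of replicates 3 and 4 were below every vehicle pool. Cytosolic ribosomal proteins had medians of 0.06, 0.09, -0.32 and -0.31 in the VBA- cortisol pools and 0.04, 0.10, -0.01 and -0.16 in the VBA- vehicle pools, again below every vehicle pool in replicates 3 and 4, with 9 of 84 genes split (10.7%, against the same 6.14%). Skin and keratin genes had medians of 0.16, 0.40, -0.50 and -0.12 in the VBA- cortisol pools, against -0.04, 0.10, -0.03 and -0.01 in the VBA- vehicle pools, with 11 of 46 split (23.9%). The median over all tested genes lay between -0.01 and 0.03 in these pools, as the quantile normalization holds it near 0.

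The median of immediate early genes lay on one side in both pairs. Their median relative to the vehicle mean was 0.66, 0.43, 0.36 and 0.38 in the VBA- cortisol pools, against 0.04, 0.07, -0.09 and 0.00 in the VBA- vehicle pools. Of 49 genes 39, 35, 28 and 32 lay above all vehicle libraries in cortisol replicates 1 to 4, and 4, 5, 6 and 5 below, and only 1 was split between the pairs. Over all 21686 tested genes 5141, 6200, 5959 and 5537 lay above in the same pools and 5021, 5660, 6635 and 5748 below, a background against which the counts of the list are to be read. GR targets were positive in all pools as well, at 0.34, 0.18, 0.13 and 0.17, against 0.06, 0.02, -0.02 and -0.04 in the VBA- vehicle pools. So were the clock, pancreatic, lens and muscle atrophy lists. Lens genes had 0.28, 0.33, 0.16 and 0.19 in VBA- cortisol, against 0.45, -0.19, -0.24 and 0.11 in VBA- vehicle pools. Genes of muscle atrophy and growth control had 0.10, 0.08, 0.08 and 0.17, against 0.00, -0.02, 0.03 and 0.02. The neuronal lists of the same pools ran in opposite directions in the 2 pairs. Their part in the immediate early values was not tested.

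**Figure D4:**
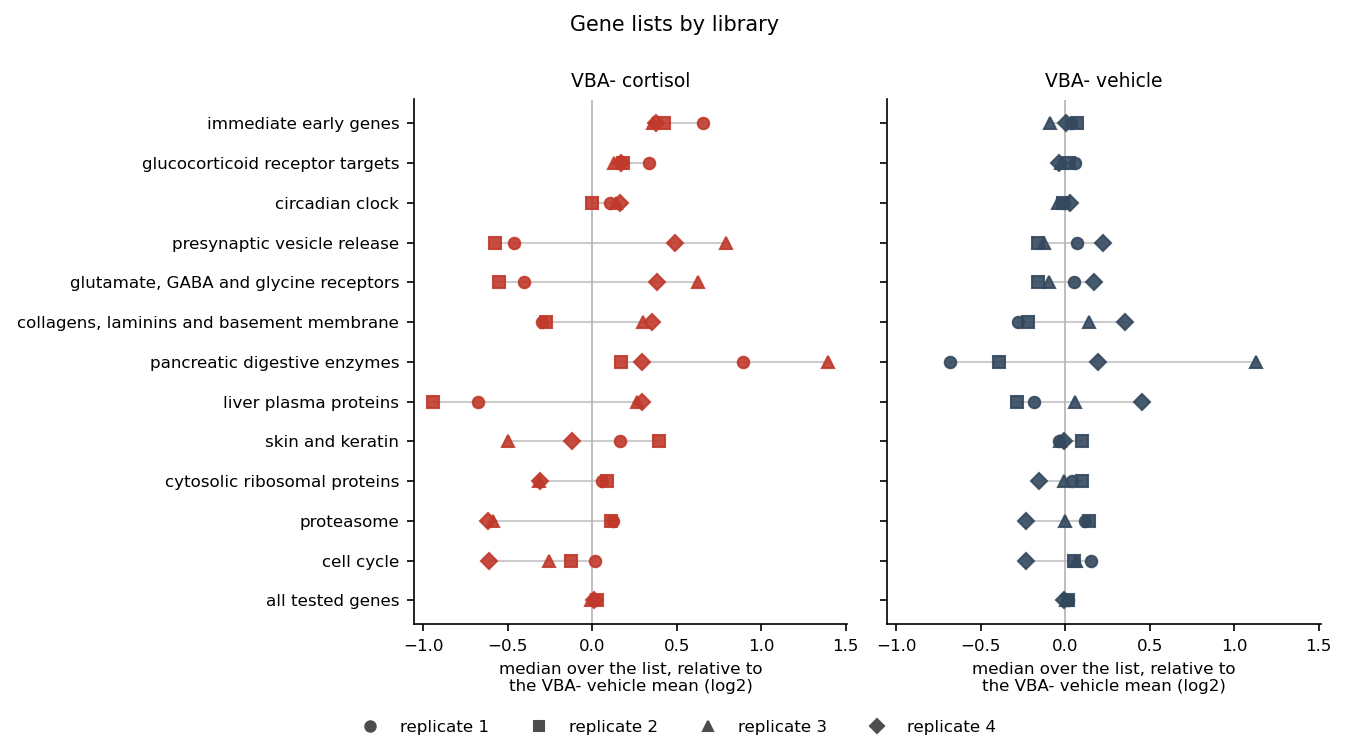
Median of each gene list in each VBA- library, relative to the mean of the VBA- vehicle libraries (log2 units), with cortisol left and vehicle right. Symbols give the replicate number and grey lines join the lowest and highest library. Immediate early genes lie between 0.36 and 0.66 in all cortisol pools, while presynaptic genes run from -0.58 to 0.79.

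A smaller set of genes varied along another order of the VBA- cortisol pools. Of the 10 genes with the largest SD over these pools, 8 were highest in replicate 1 and 8 were lowest in replicate 4, and 7 had the pools in the same order as FKBP5, with replicates 2 and 3 between them in that order. RHCG (ENSDARG00000007080), an ammonia channel of ionocytes and gills in fish, had 11.39, 10.50, 9.34 and 5.65 in VBA- cortisol and 10.35, 9.79, 10.54 and 8.71 in VBA- vehicle libraries. The cortisol pools spanned 5.75 units and enclosed all the vehicle pools. The gene urgcp, at 9.65, 7.46, 6.62 and 3.6, and si:dkey-239b22.1, at 11.47, 9.93, 9.12 and 5.09 in VBA- cortisol libraries, had similar spans, against 7.0 to 8.38 and 9.60 to 11.58 in VBA- vehicle libraries. Across the VBA+ libraries urgcp ran from 7.78 to 9.55 and si:dkey-239b22.1 from 10.66 to 11.72.

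The others of this order were si:dkey-7c18.24, with 10.77, 9.46, 8.28 and 4.33 in VBA- cortisol libraries, si:dkey-31i7.2, with 8.12, 6.83, 5.98 and 2.61, si:ch211-219a15.4, with 7.37, 5.33, 4.33 and 1.07, and zmp:0000000737, with 8.83, 8.38, 7.70 and 3.34. These genes have clone names and no role is given for them here. In zgc:153932 replicate 1 was highest at 9.99 and replicate 4 lowest at 4.47, with 6.57 and 7.97 in replicates 2 and 3. The last 2 genes did not share the order. The muscle actin gene actc1c was listed at 0 counts in replicates 1 to 3 and had 7.98 in replicate 4, against 9.50, 7.52, 2.04 and 0 counts in VBA- vehicle replicate 4, and si:dkey-262j3.7 was lowest in replicate 1 at 0.14. The SD of the tenth gene was 2.33, as was that of the eleventh, so the limit of 10 divides a continuum.

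Over the 459 genes with an SD above 1 in VBA- cortisol, the order of replicates 3, 4, 1 and 2 from high to low was the commonest, with 207 genes. Another 54 had replicates 3, 4, 2 and 1, and 50 had 2, 1, 4 and 3. The order of FKBP5 was found for 51 genes. The pool with the highest FKBP5 and NR3C1 of its group, replicate 1, also had the lowest level of PAICS (ENSDARG00000033539), an enzyme of purine synthesis used for pigment, in VBA- cortisol libraries. PAICS had 10.70, 12.64, 12.43 and 13.67 in VBA- cortisol and 12.94, 12.73, 11.35 and 13.86 in VBA- vehicle libraries, against 10.02 to 10.26 in VBA+ cortisol and 10.36 to 11.01 in VBA+ vehicle libraries. VBA- cortisol replicate 1 at 10.70 was the only VBA- library inside the VBA+ range of this gene, and vehicle replicate 3, the pool with the high NR3C1, was the next lowest. PAICS was chosen after its values were seen, and the cytochrome P450 gene cyp2aa9 did not show this, since its VBA- libraries, at 6.69 to 8.20, all lay outside its VBA+ range of 4.33 to 6.07. Nor was PAICS low in VBA- vehicle replicate 1, whose FKBP5 lay in the VBA+ range, since it had 12.94 there. The mixture of genotypes in a pool and its part in these values were not tested.

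**Figure D5:**
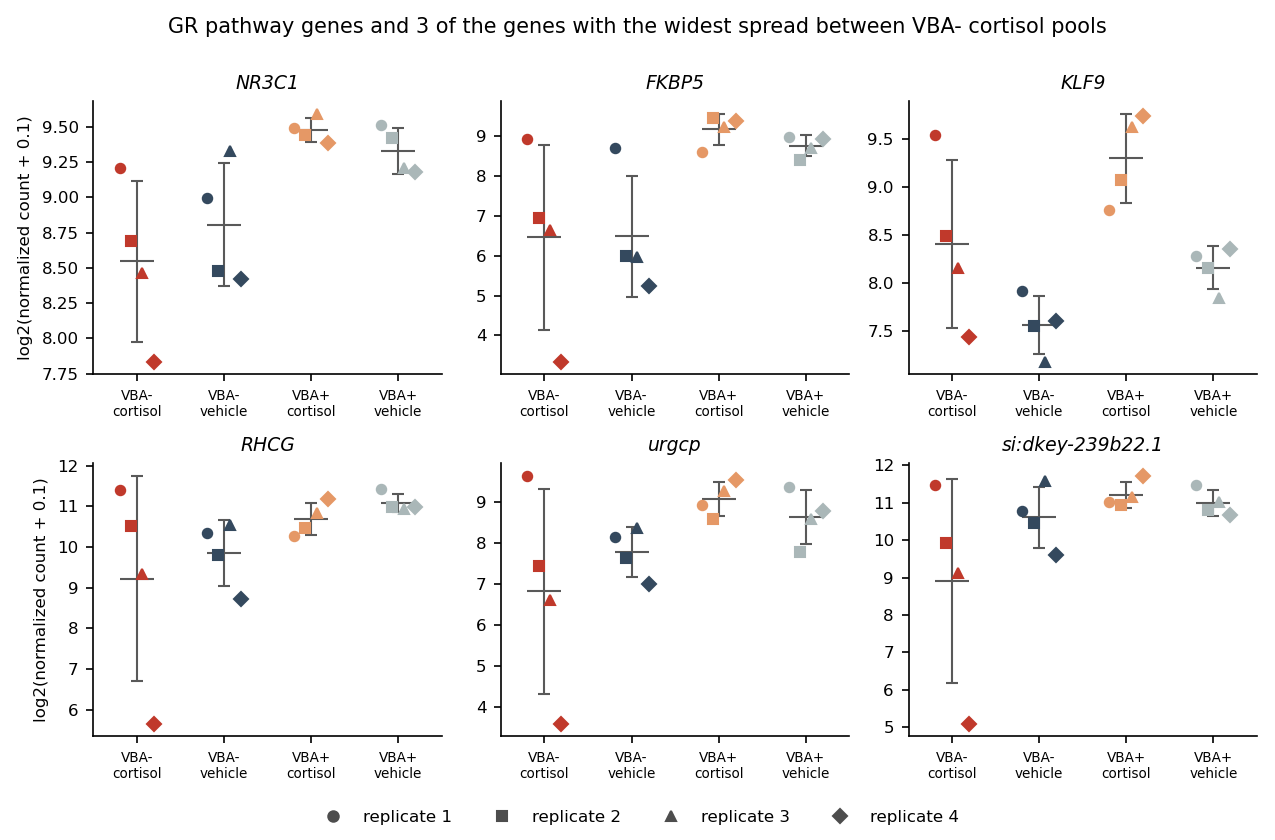
Level of the GR gene NR3C1, its targets FKBP5 and KLF9, and 3 of the 10 genes with the largest SD over VBA- cortisol pools. The vertical axis is log2(normalized count + 0.1), symbols are libraries with their replicate number, and bars are the mean ± SD of 4. In VBA- cortisol libraries each gene is highest in replicate 1 and lowest in replicate 4, with FKBP5 at 8.95 and 3.34.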

How the data were processed

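The authors trimmed paired-end reads with Trimmomatic, aligned them to GRCz11 with STAR 2.6.1b and estimated gene expression with RSEM 1.3.0. They then normalized with EDASeq for GC content within libraries and by full quantiles between libraries. The deposited values are log2 of the normalized count plus 0.1. All libraries therefore sum to 14653434 normalized counts with 310 zeros, and depth is unknown.

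The study called its genes with another model, which was not fitted here, so the counts of called genes need not match. Normalized values on the log2 scale were tested with limma 3.58.1 (R 4.3.3, lmFit and eBayes with trend), fitted on the 8 libraries compared. Benjamini-Hochberg adjustment was over 21686 genes, with the thresholds of the study (adjusted p 0.05, log2 fold change 0.5, SE 1, mean 75). The fit was tested on simulated data. Spread and PC1 were compared by two-sided exact permutation tests (SciPy 1.17.1, Python 3.11.15), and figures were drawn with matplotlib 3.10.9. Alternatives changed the libraries fitted, covariates, variance model, pseudocount, filters and each library left out.

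Members, gene lists and tests were chosen with earlier results of these data known. Genes named were those for 10 symbols of the study (11 genes), 10 genes above and 10 below vehicle in all VBA- pools by unadjusted p at a mean of at least 75, the 10 of largest SD, and up to 4 separated members per list, 47 genes in all; 1 gene that the rule for lists would name is not reported here. Genes named beyond these were chosen after their values were seen. The 24 lists held 984 symbols, 97 of them without a match. Symbols came from a table covering 21794 of the 22994 gene IDs, and copies sharing a symbol are given by ID. FOS was taken for fosab after its copy letters were dropped, a match the table does not settle. The values of near-identical gene copies are uncertain, since reads can fall to either.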

Additional observations from a re-analysis of the deposited data

Results flagged for a closer look

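In 7 of the 94 groups of 4 libraries examined (47 named genes in VBA- cortisol and VBA- vehicle), 1 library stood apart from the other 3 by Dixon's criterion, which chance exceeds in about 1 group in 20. In VBA- cortisol these were egr4 in replicate 3 (7.78, others 7.47 to 7.51), COMTD1 in replicate 1 (7.55, others 7.80 to 7.81), MCM3 in replicate 4 (8.53, others 8.78 to 8.79) and actc1c in replicate 4 (7.98, others listed at 0 counts). In VBA- vehicle they were MT-CO2 in replicate 1 (16.89, others 16.13), apom in replicate 4 (12.15, others 11.99 to 12.01) and BHLHE40 in replicate 1 (11.40, others 11.45).

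The effect of cortisol differed between the genotypes by the interaction test for 1 gene, actb2 (ENSDARG00000037870), a cytoplasmic actin. The difference of the cortisol effects, VBA- minus VBA+, came to -0.76 (adjusted p 0.0241 in limma). The value was 16.89 in all 4 VBA- cortisol, all 4 VBA- vehicle and all 4 VBA+ cortisol libraries and 16.13 in all 4 VBA+ vehicle libraries, which is 1 step between the blocks of ranks that share a value.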

How the results depend on the processing

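The count of 0 called genes in VBA- larvae became 5 with all 16 libraries in the fit and 2 with a term separating replicates 1 and 2 from the others, and was 0 under the other alternatives, each library left out included. Same-numbered VBA- libraries deviated together with correlations of 0.288, 0.657, 0.0782 and 0.67. The third is under the 0.1 asked of every pair, and differently numbered libraries correlated as highly (0.546 for cortisol 1 with vehicle 2, 0.68 for cortisol 3 with vehicle 4), so the numbers were not taken as pairs. With the replicate block the count stayed at 0, with a smallest adjusted p in limma of 0.212 and 719 genes at an unadjusted p under 0.05. In VBA+ larvae the count of 1783 became 3276 by adjusted p alone, 21 with all 16 libraries, 6 with the replicate block, 619 without the trend, 2770 with library weights, 4561 and 37 in replicates 1 and 2 or 3 and 4 alone, and 414 to 2925 with a library left out. The single interaction call became 0 with the replicate block, robust eBayes, a pseudocount of 5 or no filter, 0 or 1 with a library left out (1 without VBA- cortisol replicate 2 or VBA+ cortisol replicate 1), and 4967 and 4 in replicates 1 and 2 or 3 and 4 alone. Fits on such pairs, and those without the 3 pools in the VBA+ range, were added after seeing the data.

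The 330 genes that did not overlap in VBA- larvae became 549 to 819 with a library left out and 2016 without the 3 pools. The 62 genes in common with VBA+ larvae became 67 to 165 and 225, with 137, 157, 99 and 165 when VBA- cortisol replicate 1 or 2 or VBA- vehicle replicate 3 or 4 was left out. Fewer libraries make separation easier. The difference in RMS deviation of 0.23 ran from 0.18 to 0.26 with a library left out, where the exact permutation p of 0.0571 is the smallest possible, and was 0.0854 without the 3 pools. Groups of unlike size are not on the same scale in this measure. The difference in PC1 reversed to -21.8, -13.6 and -0.232 without VBA- cortisol replicate 3, VBA- cortisol replicate 4 or VBA- vehicle replicate 2, in a range up to 49.6. Of 37 named genes 34 kept their direction throughout. Most of these have VBA- libraries that do not overlap, and the direction of such genes could not reverse under these alternatives. The 3 that reversed all had overlapping libraries. NR3C1 reversed to 0.21 in replicates 1 and 2, PER1 (ENSDARG00000012499) to 0.0269 in replicates 3 and 4, and FKBP5 to 0.00297 and 0.061 with pseudocounts of 1 and 5, 0.59 in replicates 1 and 2, 0.0196 without the 3 pools, and 1.03 and 0.73 without VBA- cortisol replicate 4 or VBA- vehicle replicate 1, in a range from -0.84 to 1.03 with a library left out. The SDs of actc1c and si:dkey-262j3.7 fell to 2.84 and 1.69 with a pseudocount of 5, against 5.65 and 2.78. The cause was not tested. Depth is unknown, and the precision is that between pools.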
